A study of Mus musculus with 4 samples.

Results

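Ribosomal protein genes encode the proteins of the cytoplasmic ribosome. They were taken here as every symbol of the matrices that begins with Rpl or Rps followed by a digit, together with Rpsa, Rplp0, Rplp1 and Rplp2, leaving out pseudogene symbols that carry -ps and the Rps6k kinases. The rule found 87 of 28006 features. Of these, 46 are large-subunit genes, 31 are small-subunit genes and 9 are paralogs or like genes (Rpl3l, Rpl6l, Rpl7l1, Rpl10l, Rpl22l1, Rpl36al, Rpl39l, Rps27l and Rps27rt). The remaining member, Rps19bp1, encodes a nucleolar binding partner of Rps19 and is not a ribosomal protein. Rpl26l1, Rps4l and Rack1 were not analysed here, and 16 symbols with -ps were left out.

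The cytoplasmic ribosome consists of a large and a small subunit, each built of ribosomal RNA and a fixed set of proteins that are, with few exceptions, present once per ribosome. The genes are expressed in every cell type and their mRNAs are among the most abundant of a cell, so the share of transcripts they take is often read as a coarse measure of how much a cell invests in making ribosomes. Many of the mRNAs begin with a run of pyrimidines, the 5′ terminal oligopyrimidine (TOP) motif, through which the kinase mTOR and the RNA-binding protein Larp1 control their translation and stability. Mammalian genomes also carry many processed pseudogenes of these genes, which complicates the counting of short reads.

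The study concerned the forkhead transcription factors Foxa1 and Foxa2 and what they do in lung adenocarcinoma that keeps Nkx2-1. All mice were of mixed 129/B6 strain and carried p53frt and Rosa-FSF-CreERT2, so that Flp recombinase deletes p53 and activates CreERT2. KP mice had the genotype Foxa1flox/+, Foxa2flox/+, and KPF1F2 mice were labelled Foxa1flox and Foxa2flox. In all groups tumours were started with the adenovirus Ad5-mSPC-FlpO, in which the surfactant protein C promoter drives Flp. Tamoxifen was injected daily at 120 mg/kg on 4 days in week 10, and tumours were collected in week 12. The controls were therefore also exposed to tamoxifen and can lose 1 allele of each gene in recombined cells. Libraries were made from dissociated, macrodissected tumours either before (pre-depletion) or after (post-depletion) magnetic removal of CD45-positive leukocytes and CD31-positive endothelium. This gives 4 groups with 1 library each, and neither the number of mice nor whether 1 mouse gave both libraries of a genotype is stated in the labels.

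With no replicates, no difference was tested and no p-value is given; 95% intervals cover counting error only. The matrices held 4415 to 8536 barcodes and 47805086 to 63010016 UMIs (unique molecular identifiers, each marking 1 captured transcript) per library, and 2475 to 3616 cells per library were kept. Any pair of libraries shared 1 to 4 barcodes among the cells kept. Pre-depletion, 546 KP cells and 178 KPF1F2 cells were epithelial-like, and post-depletion 2326 and 1738 were. Their sums held Epcam (an epithelial adhesion protein) at 662 to 856 CPM (a gene's UMIs scaled to 1000000 UMIs of the sum) and Nkx2-1 (the lung lineage factor) at 147 to 216 CPM, while Ptprc (the leukocyte antigen CD45) stood at 0.337 to 5.72 CPM and Pecam1 (CD31) at 0.409 to 2.01 CPM. The matrices divide Foxa1 into pieces, of which Foxa1_2 had 16.4 and 16.5 CPM in KP and lower values, 7.81 and 3.40 CPM, in KPF1F2, whereas Foxa1_1 was at 2.74 to 8.04 CPM and was not lower in KPF1F2. Foxa2 pieces had at most 0.173 CPM in any library and check nothing. Xist was at 666 and 708 CPM in KP epithelial-like cells and at 0.223 and 0.304 CPM in KPF1F2, and KPF1F2 but not KP held Ddx3y (29.2 and 34.4 CPM against no UMI), so the sex of the mice differed along with genotype and the 2 cannot be told apart.

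The share of UMIs that came from ribosomal protein genes was highest in lymphocytes and lowest in neutrophils. Summed over B cell-like cells it was 29.6% in KP and 31.6% in KPF1F2, and over T cell-like cells it was 27.0% and 28.1%. Dendritic cell-like cells followed with 18.8% and 20.4%, and monocyte-like cells, present in sufficient number in KPF1F2 only, with 18.6%. Macrophage-like cells held 14.0% and 14.3%, alveolar macrophage-like cells 12.2% and 13.1%, endothelial-like cells 12.0% and 10.8%, and neutrophil-like cells 5.68% and 3.62%. In the KPF1F2 pre-depletion library, B cell-like cells thus had 8.73 times the share of neutrophil-like cells. Among stromal cells, fibroblast-like cells had 13.1% in KPF1F2 pre-depletion, and 10.9% in KP and 13.04% in KPF1F2 post-depletion, and mesothelial-like cells had 9.33% in KPF1F2 post-depletion. Depth differed between the classes but did not follow their order: the median cell had 4048 and 4104.5 UMIs among B cells, 3199.5 and 2914 among neutrophils, and 21750 and 22629 among alveolar macrophages.

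**Figure D1:**
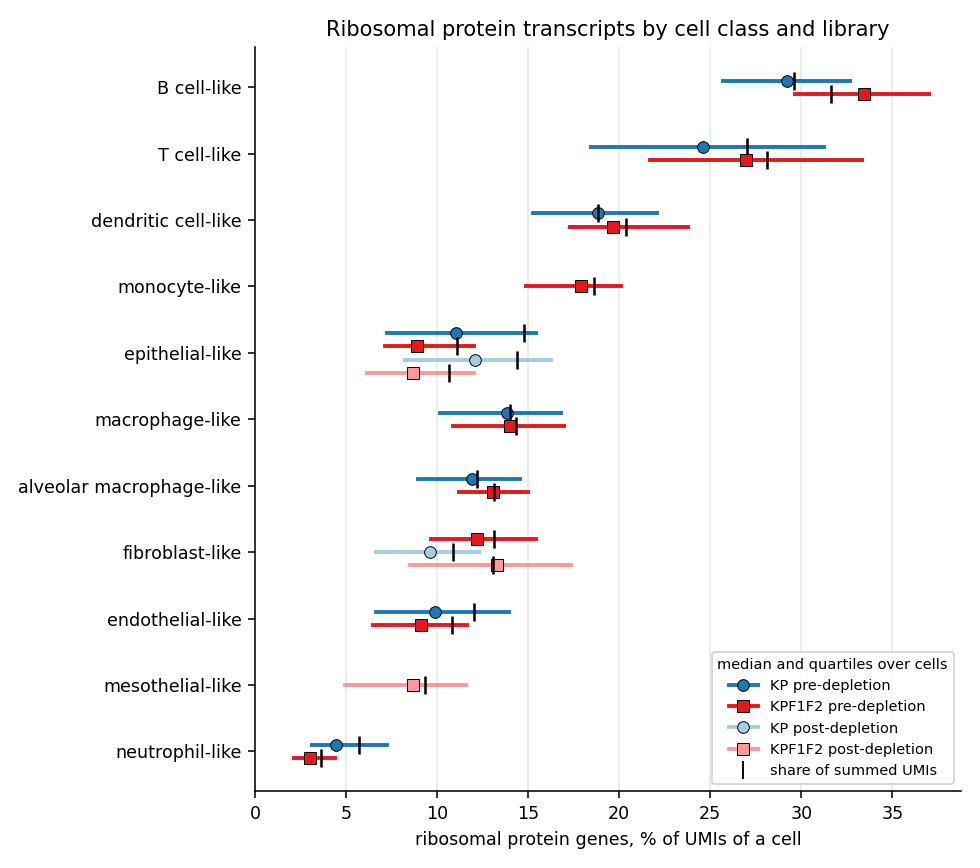
Share of a cell's UMIs that came from ribosomal protein genes (x axis, %) for each cell class (y axis) and library; points are medians over cells, bars span the quartiles, and black ticks mark the share of summed UMIs. B cell-like and T cell-like cells lie highest and neutrophil-like cells lowest in both pre-depletion libraries, and epithelial-like cells of KPF1F2 lie below those of KP.

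In epithelial-like cells the share was lower in KPF1F2 than in KP in both states. It was 14.8% in KP and 11.1% in KPF1F2 pre-depletion, a ratio of 0.752 (95% interval 0.750 to 0.755), and 14.4% and 10.6% post-depletion, a ratio of 0.741 (0.740 to 0.742). The other classes differed in direction. Pre-depletion, the ratio of KPF1F2 to KP was 1.07 in B cell-like, 1.04 in T cell-like, 1.08 in dendritic cell-like, 1.08 in alveolar macrophage-like and 1.02 in macrophage-like cells, and it was below 1 in endothelial-like (0.899) and neutrophil-like (0.638) cells. Post-depletion it was 1.20 in fibroblast-like cells. Within some classes the genotypes filled different clusters: cluster 0 held 737 of 769 alveolar macrophage-like cells of KP and cluster 12 held 617 of 677 of KPF1F2, and neutrophil cluster 11 held 158 of 190 cells of KP but 223 of 525 of KPF1F2. Of the fibroblast-like cells post-depletion, cluster 19 held 86 and cluster 24 held 14 in KP, against 181 and 239 in KPF1F2, and the part of this in the ratio of 1.20 was not tested. The large subunit took the greater part of the share everywhere, with 1.32 to 1.38 large-subunit UMIs per small-subunit UMI in epithelial-like cells, 1.10 and 1.12 in B cell-like cells, and 1.10 and 1.03 in neutrophil-like cells.

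The epithelial difference moved with cell depth and with the make-up of the class. In KP the share was higher in deeper cells from 5000 UMIs upward: the median over cells of 5000 to 10000 UMIs was 5.60% pre-depletion and 9.69% post-depletion, and over cells of 40000 or more UMIs it was 16.7% and 15.8%. The same medians in KPF1F2 were 8.45% and 6.75% in the shallower cells and 11.1% and 10.9% in the deepest. When epithelial-like cells of 5000 to 20000 UMIs alone were summed, the pre-depletion ratio was 1.01 and its direction was gone, while the post-depletion ratio was 0.632. Pre-depletion, this window held 61 cells of KP below 10000 UMIs and 96 above, and 21 and 49 cells of KPF1F2, so it left out most cells of both libraries. The part of depth in the pre-depletion difference was not tested further.

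Among the epithelial-like clusters of KP outside the low-depth ones, the cluster with the most Sftpc transcripts had the lowest share in each state. Cluster 16, led by the keratins Krt18, Krt7 and Krt8 and by gastrokine Gkn2, held 18.4% ribosomal protein UMIs pre-depletion and 16.3% post-depletion, both in KP. Cluster 6, led by Sftpc, Sftpa1 and Sftpb with Meg3, held 17.5% and 16.1%. Cluster 2, led by Sftpa1 and Sftpc, the genes of surfactant proteins made by alveolar type II cells, held 10.2% and 9.59%, and Sftpc alone made up 200422 and 211513 CPM of it. In KP post-depletion the cluster with the highest share had 1.79 times that of the cluster with the lowest, cluster 21 at 9.08%. The KPF1F2 clusters ran from 13.3% in cluster 25 (Krt7, Krt18, Krt8) through 11.6% and 9.43% in cluster 27 (Sftpd, Ager; pre- and post-depletion) to 7.79% in cluster 21 (Retnla, Sftpa1). Cluster 21 was the only epithelial-like cluster with 50 or more cells of both genotypes in 1 state, 58 of KP and 356 of KPF1F2, and its share was 9.08% against 7.79%. The share did not follow Sftpc across all KP clusters: post-depletion, cluster 17 (Ager, Cldn18) held 12.4% and cluster 23 (Timp1, Krt18) 12.5%, with Sftpc at 29867 and 1323 CPM, and both lay below cluster 6, with Sftpc at 131636 CPM.

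**Figure D2:**
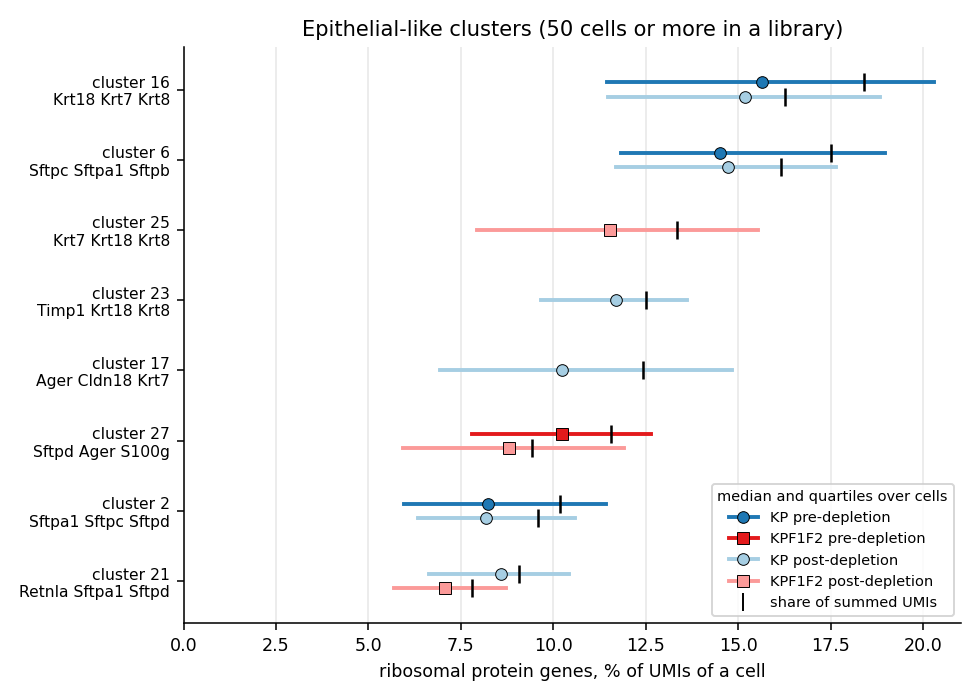
Share of a cell's UMIs from ribosomal protein genes (x axis, %) in epithelial-like clusters with 50 or more cells in a library, each named by 3 leading genes (y axis); points are medians over cells, bars quartiles, and ticks the share of summed UMIs. KP fills the 2 clusters with the highest shares, clusters 16 and 6 at 16.1% to 18.4%, and KPF1F2 cluster 21 lies lowest at 7.79%.

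Tumours of this model hold both recombined cells and lung epithelium, and the CRE-ERT2 transcript marks cells in which Flp acted. Epithelial-like cells with at least 1 CRE-ERT2 UMI had ribosomal protein shares of 16.6% (KP) and 13.1% (KPF1F2) pre-depletion and 15.5% and 12.3% post-depletion. Those without had 11.0% and 9.42%, and 13.1% and 8.77%. Both genotypes were therefore higher in the cells with the transcript, and KPF1F2 was lower than KP on either side of the split, with a ratio of 0.788 and 0.790 in the cells with it. The cells with a CRE-ERT2 UMI were deeper, at medians of 21590.5 to 36395 UMIs against 10807.5 to 17523, and a shallow cell can lack the UMI by chance.

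Low-depth epithelial clusters, which were set aside from all sums after the data were seen, did not share 1 level. Cluster 13 had 17.9% in KP pre-depletion and 18.5% post-depletion with a median of 0.894% and 1.40% mitochondrial UMIs, whereas cluster 14 had 3.72% and 5.11% with 9.72% and 11.5%. A low ribosomal protein share thus went with a high mitochondrial share between them, and the part of RNA quality was not tested. Cluster 30, which came from KPF1F2 post-depletion, had 7.16%.

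Gene by gene, 83 of the 87 members were measured in epithelial-like cells, meaning a mean of 20 CPM or more over the 4 libraries. The other 4 were Rpl3l (0.223 to 0.715 CPM), Rpl6l (1.79 to 8.18 CPM), Rpl39l (0 to 0.223 CPM) and Rpl10l, which had no UMI in any kept cell. Among the most abundant were Rpl32, Rpl13, Rpl19 and Rps24, with Rpl32 reaching 4910 CPM in KP pre-depletion, and Rpl7l1 was the least abundant of those measured, at 45.5 to 72.8 CPM. On a log2(CPM + 1) scale, the fold of KPF1F2 over KP had a median of -0.37 over the 83 members in the pre-depletion pair and -0.28 in the post-depletion pair; over the 5691 genes measured in all the medians were 0.15 and 0.08. Members lower by a log2 fold of 0.5 or more numbered 26 of 83 pre-depletion (10.2% of all genes) and 30 of 83 post-depletion (10.7% of all genes), and 24 were lower by that much in both states (6.41% of all genes). A single member, Rpl29, was higher by that much, in both states (22.5%, 17.1% and 13.1% of all genes pre-depletion, post-depletion and in both). In epithelial-like cells of 5000 to 20000 UMIs alone, 1 member instead of 26 was lower by 0.5 or more pre-depletion and the median turned to 0.052. Post-depletion 42 were lower there and the median was -0.50. The share of all genes was not computed in this depth window, so these counts cannot be set against it. Over all cells, the fold was negative in both states for 62 members and positive in both for 9. Of the 5691 genes measured, 1634 were negative in both and 2747 positive in both. At a log2 fold of 1 or more, 2 members were lower pre-depletion (3.15% of all genes), 5 post-depletion (3.65%) and 1, Rpl8, in both (2.27%); Rpl29 alone was higher (5.75%, 4.92% and 3.36%).

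Libraries of 1 genotype gave smaller differences. In KP, post-depletion against pre-depletion, 4 members were lower by 0.5 or more (2.99% of all genes) and 0 higher (3.44%), with a median of -0.10. In KPF1F2 the same comparison gave 2 lower (4.81%) and 0 higher (7.36%), with a median of -0.07. The pre-depletion and post-depletion comparisons of genotype use different libraries, and across the 83 members their folds had a Pearson r of 0.946 and a Spearman rho of 0.899 (0.891 and 0.896 without Rpl29). Genes are not independent replicates, and both comparisons differ in the sex of the mice, so this describes how alike the 2 comparisons were.

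**Figure D3:**
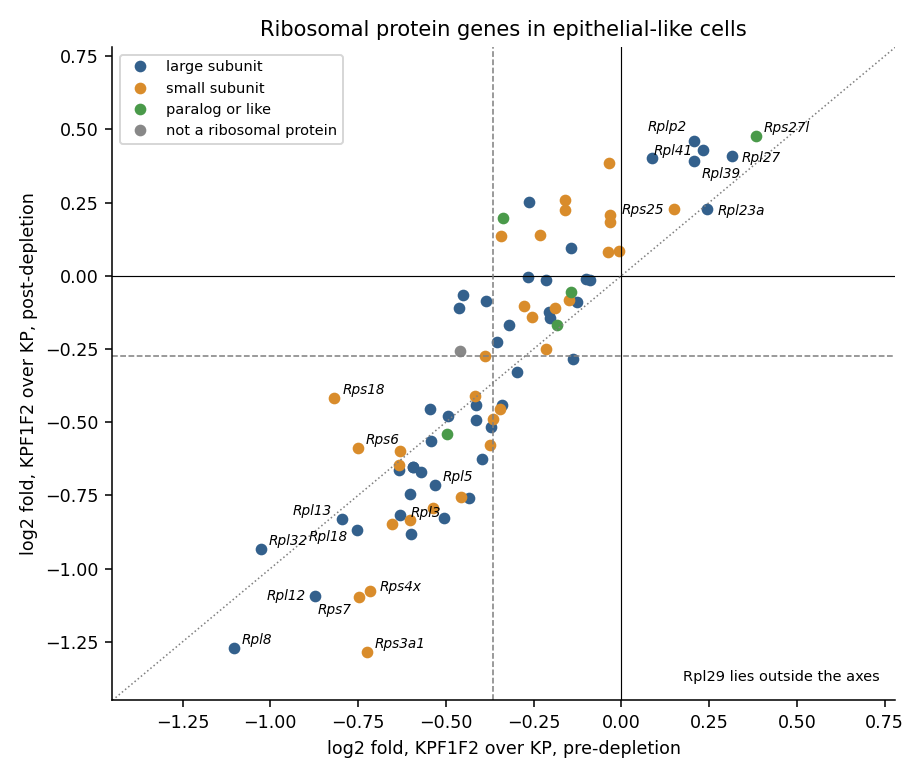
Log2 fold of KPF1F2 over KP in epithelial-like cells pre-depletion (x axis) against post-depletion (y axis), 1 point per measured member coloured by subunit; dashed lines mark the medians of members, -0.37 and -0.28, and the dotted line equality. On the y axis Rpl8, Rps3a1, Rpl12 and Rps7 lie lowest and Rps27l, Rplp2, Rpl41 and Rpl27 highest within the axes, and Rpl29 lies outside the axes at 2.82 and 3.69.

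The median fold of large-subunit genes was -0.39 (pre-depletion) and -0.38 (post-depletion). Of 46, 15 were lower by 0.5 or more in both states (6.41% of all genes). The lowest of them was Rpl8 (chr15:76904078-76906314, plus strand, 6 exons, GRCm38), a core protein near the peptidyl transferase centre. Rpl8 stood at 3040 CPM in KP and 1413 CPM in KPF1F2 pre-depletion, and at 3675 and 1523 CPM post-depletion, log2 folds of -1.10 and -1.27 (ratio 0.465, interval 0.453 to 0.477, and 0.414, 0.411 to 0.418). In single epithelial-like clusters outside the low-depth ones, Rpl8 ran from 1567 to 4719 CPM in KP and from 1085 to 2053 CPM in KPF1F2, so these ranges overlapped. In cluster 21 post-depletion, which held both genotypes, it was at 1689 CPM in KP and 1085 CPM in KPF1F2. In cells of 5000 to 20000 UMIs the pre-depletion fold of Rpl8 was -0.35, short of the limit of 0.5, and the post-depletion fold was -1.39. Rpl32 (chr6:115805505-115808747, minus strand) gave 4910 and 2408 CPM pre-depletion and 4555 and 2383 CPM post-depletion, folds of -1.03 and -0.93 (-0.50 and -1.30 in that depth window). Rpl12, a protein at the base of the stalk, gave 2355 and 1286 CPM, then 2818 and 1320 CPM, folds of -0.87 and -1.09. Rpl13 (-0.80 and -0.83), Rpl18 (-0.75 and -0.87), Rpl3 (-0.63 and -0.82) and Rpl19 (-0.60 and -0.74) were lower by similar amounts.

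The stalk of the large subunit, which recruits and activates translation factors, was not uniform. Rplp0, its scaffold, was at 2718 CPM in KP and 1829 CPM in KPF1F2 pre-depletion and at 2989 and 1876 CPM post-depletion, folds of -0.57 and -0.67. Its acidic partners did not share this: Rplp1 had 1945, 1828, 1995 and 1974 CPM in the order KP and KPF1F2 pre-depletion, then KP and KPF1F2 post-depletion, folds of -0.09 and -0.01. Rplp2 had 1020, 1177, 896 and 1232 CPM in that order, folds of 0.21 and 0.46. Rpl5 and Rpl11, which together with 5S ribosomal RNA form the particle that can bind Mdm2 and stabilise p53, both lay lower: Rpl5 at 1247, 863, 1455 and 887 CPM (-0.53 and -0.71) and Rpl11 at 2203, 1514, 2230 and 1508 CPM (-0.54 and -0.56). In these tumours p53 is deleted by Flp in recombined cells.

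For small-subunit genes the median fold was -0.35 (pre-depletion) and -0.28 (post-depletion). Of 31, 9 were lower by 0.5 or more in both states (6.41% of all genes). Rps6, the substrate of S6 kinases, had 1254, 745, 1341 and 891 CPM in the same order, folds of -0.75 and -0.59. Rpsa, which also occurs as a laminin receptor precursor, had 2362, 1720, 2762 and 1635 CPM, folds of -0.46 and -0.76. Rps19, the protein most often mutated in Diamond-Blackfan anaemia, was nearer to level, with 2928, 2417, 2390 and 2223 CPM and folds of -0.28 and -0.10. The lowest post-depletion fold of all members was that of Rps3a1 (chr3:86137940-86142702, minus strand), at 2152, 1301, 2014 and 826 CPM, folds of -0.73 and -1.29; it was singled out after its values were seen, as was Rps7 (2710, 1615, 2926 and 1368 CPM, folds of -0.75 and -1.10). In cells of 5000 to 20000 UMIs the pre-depletion folds were -0.38 for Rps3a1 and -0.18 for Rps7, short of 0.5, and the post-depletion folds were -1.46 and -1.31. Outside the epithelium Rps3a1 was at 2031 CPM in KPF1F2 pre-depletion fibroblast-like cells, and post-depletion these cells had 1788 CPM in KP and 1222 CPM in KPF1F2.

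The 4 X-linked members went different ways. Rps4x, a small-subunit protein, had 2036, 1239, 2540 and 1205 CPM, folds of -0.72 and -1.08 (-0.07 and -1.24 in cells of 5000 to 20000 UMIs). Rpl10, a late-joining large-subunit protein, had 2422, 1873, 2659 and 1859 CPM, folds of -0.37 and -0.52. Rpl36a had 628, 545, 508 and 466 CPM (-0.21 and -0.12), and Rpl39, which lines the exit tunnel, had 979, 1130, 710 and 932 CPM (0.21 and 0.39). Over all cells, only Rps4x of these was lower by 0.5 or more in both states. In other classes of the pre-depletion libraries Rps4x folds lay between -0.05 (dendritic cell-like) and -0.27 (endothelial-like), apart from neutrophil-like cells at -1.49. The sex of the mice cannot be told apart from genotype for these genes.

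Departures from the other members were measured against the members' median fold. In both states, 11 of 83 members lay at least 0.5 from it on the same side: 8 above (30.9% of all genes lay that far above it) and 3 below (2.93%). Those below were Rpl8, Rpl32 and Rpl12. Those above were Rpl29 (3.19 and 3.97 above the median), Rps27l (0.75 and 0.75), Rpl27 (0.68 and 0.68), Rpl41 (0.60 and 0.71), Rplp2 (0.57 and 0.73), Rpl39 (0.57 and 0.67), Rpl23a (0.61 and 0.50) and Rps25 (0.52 and 0.50). The last of each side sat near the limit: Rpl12 was 0.50 below pre-depletion, while Rpl13, at 0.43 and 0.56 below, and Rpl38, at 0.45 and 0.68 above, fell just outside. With the counts of near copies, features that share sequence with a member, added to that member, 8 of the 11 still departed. The departures listed above are those of each member's own entry. With its near copy Gm10709 added, Rpl29 had log2 folds of only 0.13 and 0.23. The pre-depletion fold of Rpl41 was 0.07 at the lowest of the alternative settings. Several of the departing genes are overlapped by another annotated gene (Rpl32 by Cand2 and Rpl12 by Lrsam1 on the opposite strand). How strand was used in counting is not given in the sources used here.

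Rpl29 (chr9:106429454-106431568, plus strand, 4 exons, GRCm38), a large-subunit protein rich in basic residues, stood apart in every cell class measured in both genotypes. In epithelial-like cells it had 27.7 CPM in KP (95% interval 25.3 to 30.2) and 202 CPM in KPF1F2 (189 to 216) pre-depletion, and 19.5 CPM (18.2 to 20.9) and 263 CPM (259 to 268) post-depletion. The log2 folds of 2.82 and 3.69 correspond to count ratios of 7.29 (6.53 to 8.14) and 13.5 (12.6 to 14.5). Across all classes with enough cells, the 10 sums from KP libraries ran from 16.6 to 46.1 CPM with a median of 26.5, and the 13 sums from KPF1F2 libraries from 59.2 to 781 CPM with a median of 353, so the genotypes did not overlap. Per 1000 ribosomal protein UMIs, which removes the differences in total share, the ranges were 0.09 to 0.29 in KP and 1.63 to 3.09 in KPF1F2.

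The last 120 coding bases of Rpl29 (bases 361 to 480 of the coding sequence) and of a near copy in the matrices, Gm10709 (chr9:7751725-7752204, plus strand, annotated as a gene model on the same chromosome), are shown because reads of a 3′ assay fall near this end and few bases there separate the genes. Another feature, Gm17669, shared more stretches of 90 bases with Rpl29 (53 against 18 for Gm10709). It had at most 0.048 CPM in epithelial-like cells and is not shown. Sequences are GENCODE release M21 transcripts on GRCm38, written 5′ to 3′, and capitals mark the bases that differ.
Rpl29: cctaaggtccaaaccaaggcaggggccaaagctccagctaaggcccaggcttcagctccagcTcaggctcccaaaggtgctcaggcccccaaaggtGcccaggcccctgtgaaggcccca
Gm10709: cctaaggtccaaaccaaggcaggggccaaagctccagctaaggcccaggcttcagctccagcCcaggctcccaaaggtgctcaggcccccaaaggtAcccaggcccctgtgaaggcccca
Here 118 of 120 bases were identical, and 476 of 480 over the whole coding sequence (99.2%).

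In KP nearly all UMIs of the pair were counted under Gm10709. Its values were 466, 339, 397 and 224 CPM in the order KP and KPF1F2 pre-depletion, then KP and KPF1F2 post-depletion. Added to Rpl29 it gave 494, 541, 416 and 488 CPM, so the sum had log2 folds of 0.13 and 0.23, where Rpl29 alone had 2.82 and 3.69. The contrast between the genotypes therefore lay mainly in how UMIs were divided between the entries, and the sum did not reach a log2 fold of 0.5 in either state. Which transcript the reads came from was not tested. Some other near copies were also lower in KPF1F2. Gm10036, a near copy of Rpl11, had 66.7 and 71.6 CPM in KP against 1.56 and 0.629 CPM in KPF1F2. Gm10260, a near copy of Rps18, had 120 and 126 CPM against 0 and 0.130 CPM. Unlike Rpl29, Rpl11 was itself lower in KPF1F2, and adding the copies left it at -0.58 and -0.61. Gm10076, a near copy of Rpl41, had 740, 575, 480 and 628 CPM in the order given for Gm10709 (log2 folds of -0.36 and 0.39). Of the members, 22 had at least 1 copy among the features, 32 copies in all, and 64 of 86 members shared a stretch of 90 bases within their last 300 bases with another annotated gene. How reads that match several genes were counted is not given in the sources used here, so single-member values of such genes are uncertain.

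**Figure D4:**
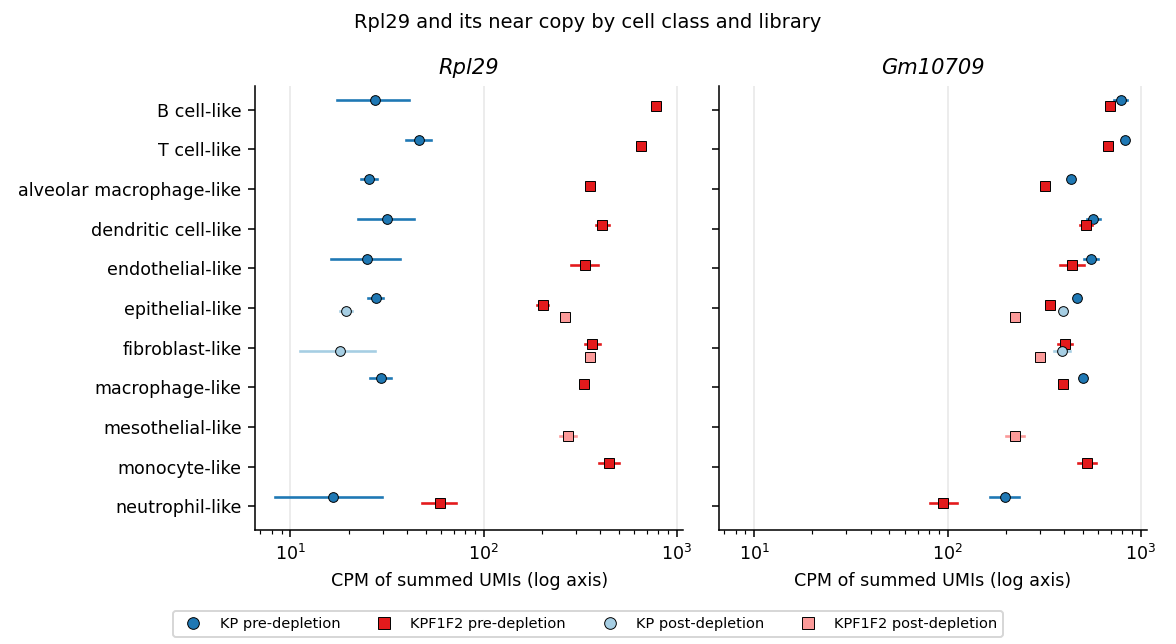
Rpl29 (left) and its near copy Gm10709 (right) in summed UMIs of each cell class (y axis) and library, in CPM on a log axis with 95% counting intervals. Rpl29 lies at 16.6 to 46.1 CPM in the KP sums shown and at 59.2 to 781 CPM in the KPF1F2 sums shown, while Gm10709 overlaps between the genotypes. Low-depth clusters are not drawn.

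Coding length ordered the folds of the members. Among the 77 main genes, those with the shortest coding sequences (138 to 405 bases, 26 genes) lay at a median log2 fold of -0.16 before and 0.09 after depletion. Those of 408 to 576 bases (25 genes) had -0.35 and -0.33, and the longest (582 to 1257 bases, 26 genes) -0.55 and -0.73. Spearman's rho between coding length and fold was -0.608 pre-depletion and -0.753 post-depletion over the 77 genes, and -0.126 and 0.092 over the genes that are no members. Rpl41, whose product is the shortest of the set, had 1768, 2076, 1315 and 1773 CPM (0.23 and 0.43), its near copy Gm10076 not added. Rpl3, one of the longest, had 1769, 1143, 1965 and 1114 CPM.

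The same ordering was present between libraries of 1 genotype, with the opposite sign. In KP, post-depletion against pre-depletion, the medians were -0.37 in the shortest, -0.09 in the middle and 0.14 in the longest group, with a rho of 0.805 (-0.0032 over the genes that are no members). In KPF1F2 the medians were -0.13, -0.05 and -0.02 with a rho of 0.331, and over the genes that are no members rho was 0.323, so this ordering was not particular to the members. An ordering of the members was also present in other cell classes. Over the 77 main genes, the rho of coding length with the fold of KPF1F2 over KP was between -0.54 and -0.68 in 7 classes of the pre-depletion libraries. In these classes it was not computed over the genes that are no members, so whether it was particular to the members is not known. An ordering by length therefore occurred between libraries of 1 genotype as well as between genotypes, among members that share library, depth and preparation. Its part in the departures of long genes such as Rpl8 and of short genes such as Rpl41 and Rpl39 was not tested.

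**Figure D5:**
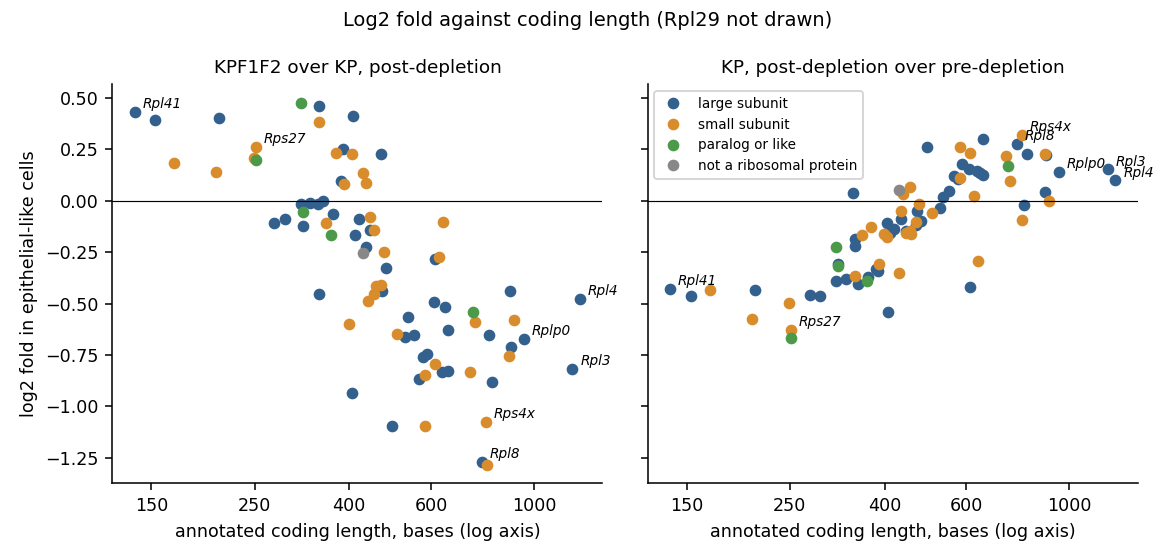
Log2 fold in epithelial-like cells (y axis) against annotated coding length in bases (x axis, log scale), 1 point per measured member other than Rpl29; left, KPF1F2 over KP post-depletion, right, KP post-depletion over pre-depletion. Folds go down with length on the left, from a median of 0.09 to -0.73 between the shortest and longest groups, and up on the right, from -0.37 to 0.14.

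Over the 5 paralogs that were measured the median fold was -0.18 (pre-depletion) and -0.05 (post-depletion). Rps27l encodes a close relative of Rps27 that is known as a p53 target. The last 120 bases of the Rps27 reading frame (bases 133 to 252) are shown with the same stretch of its 2 relatives, because they differ in how well reads can separate them. Sequences are from GENCODE M21 on GRCm38, 5′ to 3′, and capitals mark the bases that differ between Rps27 and Rps27l.
Rps27: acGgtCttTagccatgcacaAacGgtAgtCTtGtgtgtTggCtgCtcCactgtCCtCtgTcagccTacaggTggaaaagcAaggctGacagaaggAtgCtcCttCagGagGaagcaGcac
Rps27rt: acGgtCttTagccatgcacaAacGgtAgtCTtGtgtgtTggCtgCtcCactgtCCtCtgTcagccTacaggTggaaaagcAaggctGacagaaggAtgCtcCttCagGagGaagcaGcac
Rps27l: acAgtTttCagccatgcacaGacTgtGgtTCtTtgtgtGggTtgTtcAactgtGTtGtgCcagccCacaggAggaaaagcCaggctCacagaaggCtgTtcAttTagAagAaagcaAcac
Rps27 (chr3:90212522-90213651, minus strand) and the retrogene Rps27rt (chr9:114982366-114982739, minus strand) are identical over all 252 coding bases. Rps27l (chr9:66946086-66949516, plus strand) differs from Rps27 at 28 of these 120 bases and at 60 of 252 in all.

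Rps27l had 222, 290, 190 and 265 CPM in epithelial-like cells in the usual order of libraries, folds of 0.38 and 0.48 (0.94 and 0.31 in cells of 5000 to 20000 UMIs). Rps27 had 1094, 977, 707 and 846 CPM, folds of -0.16 and 0.26, and Rps27rt, which cannot be separated from it by coding sequence, had 296, 234, 186 and 214 CPM. Rps27l was therefore higher in KPF1F2 in both states, whereas Rps27 changed sign between the states. In KP cluster 23, led by Timp1 and holding Npy at 1576 CPM, Rps27 and Rps27l had the same level of 299 CPM, while Rps27 stood at 620.4 to 1315 CPM in the other KP clusters outside the low-depth ones. In the low-depth clusters of KP Rps27 was at 375 and 340 CPM (cluster 14) and at 1363 and 931 CPM (cluster 13), so the low level was not particular to cluster 23.

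The paralogs Rpl22l1, Rpl36al and Rpl7l1 had folds below 0 in both states. Rpl22l1, a paralog of Rpl22 that can replace it in ribosomes, had 357, 314, 272 and 242 CPM (-0.18 and -0.17), and Rpl22 had 1021, 924, 812 and 868 CPM (-0.14 and 0.10). Rpl36al, a retrogene of Rpl36a, had 765, 692, 614 and 591 CPM (-0.14 and -0.05). Rpl7l1 was lower by 0.5 post-depletion (64.7, 45.5, 72.8 and 49.8 CPM, folds of -0.50 and -0.54). Rps19bp1 had 66.6, 48.2, 69.2 and 57.8 CPM (-0.46 and -0.26). Rpl39l, known for its high level in male germ cells, was at or near 0 throughout.

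Cell classes also differed in the composition of the set. As UMIs per 1000 ribosomal protein UMIs, 19 of the 83 members had a range of at least 1 on the log2 scale over 8 classes in both pre-depletion libraries, and the median member had a smaller range of 0.64. On this scale 97.9% of all genes passed the same limit, and dividing by the members' own total narrows their ranges in particular. In CPM, where the total share also counts, 82 of 83 members had such a range, against 85.4% of all genes. Rps27l had the widest range. It had 0.36 per 1000 in B cell-like and 0.56 in T cell-like cells of KP, against 4.46 in dendritic cell-like and 5.44 in neutrophil-like cells, and in KPF1F2 the same classes had 1.05, 0.87, 5.49 and 4.46. Lymphocytes were thus low and myeloid cells high in both libraries. Rps27 ran differently, with 14.4 per 1000 in KP B cell-like, 6.41 in macrophage-like and 16.4 in neutrophil-like cells, and 12.0, 7.71 and 25.2 in KPF1F2.

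Neutrophil-like cells were an extreme for several of these members. Rps9, a small-subunit protein, made up 46.7 and 74.0 per 1000 in neutrophil-like cells of KP and KPF1F2, against 15.5 to 26.3 in the other classes. In CPM it was not raised there: it stood at 2654 and 2681 CPM in neutrophil-like cells and at 1796 to 6469 CPM elsewhere, so it kept its level where other members were lower. Rps25 showed the same with 12.3 and 13.6 per 1000 against 4.98 to 9.21 elsewhere. Rpl3, which helps shape the peptidyl transferase centre, was the reverse, at 4.67 and 2.02 per 1000 in neutrophil-like cells against 7.79 to 12.96. Rpl22l1 was also lowest there (0.77 and 1.03 against 1.41 to 3.11), and Rps4x stood at 8.90 and 4.94 against 11.2 to 18.9 elsewhere. These cells held 37661 and 59362 ribosomal protein UMIs in all, among the smallest sums, so rare members rest on few counts: Rpl7l1 on 37 and 46 UMIs and Rps19bp1 on 24 and 14. Rpl3l, the striated muscle paralog of Rpl3, was near 0 in epithelial-like cells but had 19.7 and 22.4 CPM in alveolar macrophage-like and 15.1 and 26.9 CPM in neutrophil-like cells.

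In 6 of 7 classes other than epithelium, the members' median log2 fold between genotypes was nearer to 0 than in epithelial-like cells, and in neutrophil-like cells it was further from 0. Pre-depletion it was 0.15 in B cell-like, 0.08 in T cell-like, 0.09 in alveolar macrophage-like, 0.06 in macrophage-like, 0.16 in dendritic cell-like and -0.14 in endothelial-like cells, and -0.83 in neutrophil-like cells, where 21 of 83 members lay within 0.5 of no change. Rpl29 was the highest member in all 7 classes, at 1.78 to 4.78. Rps6 was the lowest in 6 of them, at -0.70, -0.81, -0.29, -0.55, -0.58 and -0.72 in B cell-like, T cell-like, alveolar macrophage-like, macrophage-like, dendritic cell-like and endothelial-like cells. In neutrophil-like cells, Rps6 was at -1.72 and Rps19bp1 was the lowest member.

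Start sites of 66 members were found in the RefSeq table for GRCm38.p6, 78 starts in all. A run of 5 or more C or T bases that begins with C, on the gene's strand and within 5 bases of the start, was present at 41.0% of these starts, against 18.3% of 32851 starts of all genes. Windows of 30 bases around the start are shown for 4 members to let the match be seen. Capitals mark the run, and Rplp0 has none in this window. The run of Rpl22l1 is 8 bases long and is cut by the end of its window.
Rps27 (chr3:90213639-90213668, minus strand): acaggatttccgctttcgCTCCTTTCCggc
Rpl22l1 (chr3:28805488-28805517, plus strand): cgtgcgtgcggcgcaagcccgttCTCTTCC
Rpl39 (chrX:37085213-37085242, minus strand): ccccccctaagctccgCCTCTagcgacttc
Rplp0 (chr5:115559447-115559476, plus strand): acgtcgtcttcgggtttcgaggaccgcctg
A match describes the annotated start only, which may differ from the start used in these cells.

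Genes that work beside the members were taken from lists of their own. Of 18 measured translation factors and other TOP mRNAs, 5 were lower by 0.5 or more pre-depletion (10.2% of all genes). Post-depletion 10 were lower (10.7%), and 4 were lower in both states (6.41%). The medians were -0.43 and -0.56, and none was higher by 0.5 or more (22.5% and 17.1% of all genes). Tpt1, a TOP mRNA that encodes the translationally controlled tumour protein, had 8243, 4764, 10471 and 4536 CPM (-0.79 and -1.21), and the elongation factor Eef1b2 1123, 641, 1216 and 654 CPM (-0.81 and -0.89). The poly(A)-binding protein Pabpc1 gave -0.62 and -0.71, and Eif3e -0.73 and -0.87. The members and these genes thus had medians of the same sign in both states.

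Genes that make ribosomes had medians below 0 in both states. Of 17 measured biogenesis genes 5 were lower by 0.5 or more pre-depletion (10.2% of all genes) and 1 post-depletion (10.7%), with medians of -0.29 and -0.17; nucleolin (Ncl) gave -0.95 and -0.30, Gar1 -0.72 and -0.70, and Nop10 0.46 and 0.46. Mitochondrial ribosomal proteins, which serve the separate ribosome of mitochondria, had medians of 0.06 and -0.05 over 71 measured genes. Pre-depletion 2 of them were lower (10.2% of all genes) and 6 higher (22.5%). Post-depletion 3 were lower (10.7%) and 4 higher (17.1%). Of 10 measured genes of growth signalling to ribosomes 3 were higher in each state, near the share of all genes (22.5% and 17.1%), and 1 was lower post-depletion. Among the higher was Myc, a factor that drives ribosome biogenesis, at 23.8, 34.4, 23.1 and 35.7 CPM (0.51 and 0.61). Its relative Mycn, under the limit of 20 CPM, went the other way at 12.9, 4.24, 12.4 and 2.84 CPM (-1.41 and -1.81). The list of p53 and stress targets had 1 of 9 measured genes higher in both states, Ccng1, at 1.23 and 1.04, which is also near the share of all genes (13.1%).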

How the data were processed

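Single-cell RNA libraries of mouse lung tumours were made with the 10x Genomics 3′ assay, version 3.1, per the labels' protocols. The deposited matrices hold counts, each the number of UMIs of a gene in a barcode, from Cell Ranger 6.0.0 per the file headers, on mm10 per the submitters' processing notes; the sources used here do not give annotation, strand or settings. A 3′ count is 1 per molecule and was not scaled by length.

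Cells with 1000 or more UMIs, 500 or more genes and at most 20% mitochondrial UMIs were kept. Scrublet marked under 0.5% of cells, so the highest-scoring 0.8% per 1000 barcodes were removed (181, 131, 247 and 91 cells for KP and KPF1F2 pre-depletion, then KP and KPF1F2 post-depletion), leaving 3616, 3377, 3375 and 2475 cells with medians of 8312, 7080, 9595 and 16410 UMIs. Cells were clustered with scanpy 1.11.5 and igraph 0.11.9 (2000 variable genes other than members, 30 components, 15 neighbours, Leiden resolution 1) and clusters were named from fixed markers. Clusters whose median depth was under a 3rd of their libraries' were set aside, a choice made after seeing the data.

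Shares are member UMIs over all UMIs of summed cells, with Clopper-Pearson intervals. CPM have exact Poisson intervals and count ratios conditional binomial ones, all at 95%. Log2 folds add 1 CPM to each side and need a mean of 20 CPM or more. Sums were per class with 50 or more cells in a library. Coding lengths and sequences came from GENCODE M21 and start sites from RefSeq. The members and lists were chosen with earlier results of these data known. Members were named by a rule: a list of 24 taken in any case, the 5 largest departures from the median on each side, the 8 widest ranges over classes, and the 5 most and 5 least abundant. Up to 4 genes in the main and 2 in the other direction could be named from each other list. Rps3a1, Rps7, Rpl23a, Rpl38, Rps27rt and the near copies fall outside that rule and were chosen after their values were seen. An allele shared by all groups and some single-gene values are not reported here. Scripts for folds were tested on simulated counts. Alternatives covered doublets, filters, clustering, denominators, depth, gene set, scaling (edgeR 4.0.16, DESeq2 1.42.0), added CPM, free RNA and copies.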

Additional observations from a re-analysis of the deposited data

Results flagged for a closer look

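Several classes went against the epithelial-like cells, where the ribosomal protein share was lower in KPF1F2 than in KP in both states. The ratio of KPF1F2 to KP pre-depletion was 1.07 in B cell-like, 1.04 in T cell-like, 1.08 in alveolar macrophage-like, 1.08 in dendritic cell-like and 1.02 in macrophage-like cells, and post-depletion it was 1.20 in fibroblast-like cells, against 0.752 and 0.741 in epithelial-like cells. Post-depletion, clusters 19 and 24 held 86 and 14 fibroblast-like cells in KP but 181 and 239 in KPF1F2. With 1 library on each side these differences between classes were not tested.

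Among the members named, the genotype fold had opposite signs in the pre-depletion and post-depletion libraries for Rpl22 (-0.14 and 0.10) and Rps27 (-0.16 and 0.26). These differences between states were not tested either.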

How the results depend on the processing

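The ratio of member share in epithelial-like cells, KPF1F2 over KP, was reported as 0.752 pre-depletion and 0.741 post-depletion. Pre-depletion it was 1.01 in cells of 5000 to 20000 UMIs, where the members' median log2 fold was 0.052, so both changed direction. It was 0.746 with at most 10% mitochondrial UMIs, 0.756 with members allowed among the variable genes, 0.773 at Leiden resolution 0.5, 0.749 without mitochondrial UMIs, 0.701 without the 50 leading other genes, 0.672 with TMM, 0.676 with DESeq2 factors, 0.788 in CRE-ERT2 cells, 0.735 after subtracting 5% free RNA and 0.769 with low-depth clusters kept. Post-depletion it was 0.751, 0.742, 0.761 and 0.743 under the first 4 of these, 0.632 in cells of 5000 to 20000 UMIs, 0.703 and 0.707 with the scalings, 0.790 in CRE-ERT2 cells, 0.719 after subtraction, 0.759 with low-depth clusters, 0.749 with doublets kept, 0.739 from 3000 UMIs and 0.738 for main genes. TMM moves all folds by -0.16 pre-depletion and -0.08 post-depletion (DESeq2 -0.15 and -0.07). Members lower pre-depletion (26) numbered 47 with TMM, 43 with DESeq2 and 1 in cells of 5000 to 20000 UMIs. Post-depletion the range was 26 to 42. The share of all genes was not computed under these settings, so the counts cannot be set against it. The B cell to neutrophil ratio (8.73) was 8.28 with doublets, 9.004 from 3000 UMIs, 8.93 without mitochondrial UMIs, 6.29 without the 50 leading genes and 11.1 as medians. The ratio of epithelial clusters (1.79) was 1.82 with doublets, 1.61 with members allowed among the variable genes, 1.65 at Leiden 0.5, 1.504 without the 50 leading genes, 1.86 as medians, 1.64 in cells of 5000 to 20000 UMIs and 3.63 with low-depth clusters. Departing members numbered 8 to 11, and each set was contained in the 11 reported. With members allowed among the variable genes, 0 members were selected, so that setting cannot show what members would do to the clusters. The causes of the changes between settings were not tested. Removing cycling clusters was not run, since no epithelial-like cluster had 6 of 12 cycling markers. No paired analysis was possible because each group has 1 library.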
